A study of Homo sapiens with 12 samples.

Results

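The genes described here encode 46 proteins of the respiratory chain and of the ATP synthase, 33 of them in the nuclear genome and 13 in the mitochondrial genome. They were found by matching a list of gene symbols to the Ensembl gene IDs of the count tables, and all 46 were present among the 60649 gene IDs in each table. The mitochondrial genome, whose gene symbols begin with MT-, contributed all 13 of its protein-coding genes: 7 of complex I, 1 of complex III, 3 of complex IV and 2 of complex V. The nuclear genes were 13 of complex I, 4 of complex II, 5 of complex III, 6 of complex IV with NDUFA4 counted there, and 5 of complex V.

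RNA came from tumours grown as xenografts from Cal33 cells, a line that the labels call head and neck squamous cell carcinoma, in 4 groups of 3 libraries. The smTEADi group was treated with SW-682 and was set against the group that received Vehicle. The pTEADi group is labelled DOX+ and was set against the Control group, which is labelled DOX-. All 4 groups share the cell line and the xenograft setting. Both agents are named as inhibitors of TEAD, the DNA-binding factors through which YAP and TAZ act on genes. Dose, duration, the promoter that drives pTEADi and the host strain are not given in the labels, and it is not said whether each sample is its own animal. The p-values therefore cover only the spread between these samples, which may be technical. The pTEADi group differs from its Control in doxycycline as well as in pTEADi, and the effects of these 2 on any gene cannot be told apart here. Doxycycline belongs to the tetracycline antibiotics, which are known to slow the mitochondrial ribosome.

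Complex I (NADH dehydrogenase) and complex II (succinate dehydrogenase) pass electrons to ubiquinone, complex III passes them to cytochrome c, and complex IV passes them to oxygen. Complexes I, III and IV pump protons across the inner mitochondrial membrane, and complex V, the ATP synthase, uses the returning protons to make ATP. Complex II is made from nuclear genes alone, whereas the others are built from parts of both genomes. Mitochondrial messenger RNAs are cut from long transcripts that cover nearly the whole circle, and most of them carry short poly-A tails. They include a pair of bicistronic messages, MT-ATP8 with MT-ATP6 and MT-ND4L with MT-ND4. The levels of mitochondrial messages therefore depend on processing and stability as well as on transcription.

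The 12 libraries held between 13576494 and 15433679 expected counts, and mitochondrial RNA made up 3.64% to 5.99% of a library. Squamous epithelium markers were high in every library, with summed levels of 41285 to 72951 CPM (counts per 1000000, scaled between libraries by the trimmed mean of M values, TMM). All 46 genes passed the filter on low counts in both comparisons. The lowest count of any of them was 55, for MT-ATP8, and the highest was 216141, for MT-CO1. Reads of the mouse host may be among the counts, since the labels do not say that they were removed. In a tumour, fewer cells of a type and less RNA per cell cannot be told apart.

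Levels set against gene length, in CPM per kilobase of merged exons, placed the mitochondrial genes far above the nuclear genes. The mean level over the 12 libraries ran between 59.6 and 7845 CPM per kilobase for the mitochondrial genes (median 1682) and between 4.26 and 281.9 for the nuclear genes (median 27.6). Within each complex and genome, the highest of these per-length levels belonged to MT-ND4 (4194 CPM per kilobase), MT-CYB (2847), MT-CO1 (7845) and MT-ATP6 (5718) in the mitochondrial genome. In the nuclear genome they belonged to NDUFB10 of complex I (72.2 CPM per kilobase), SDHC of complex II (39.3), CYC1 of complex III (117.8), COX5B of complex IV (55.4) and ATP5F1B of complex V (281.9). MT-ATP8 was the lowest mitochondrial gene in all 4 groups, and its level stood apart between the experiments, with 17.1 to 17.8 CPM in smTEADi and 18.8 to 22.1 CPM in Vehicle tumours, but 4.20 to 6.32 CPM in pTEADi and 3.93 to 8.19 CPM in Control tumours. The experiments were scaled in separate tables, and this difference was not tested.

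**Figure D1:**
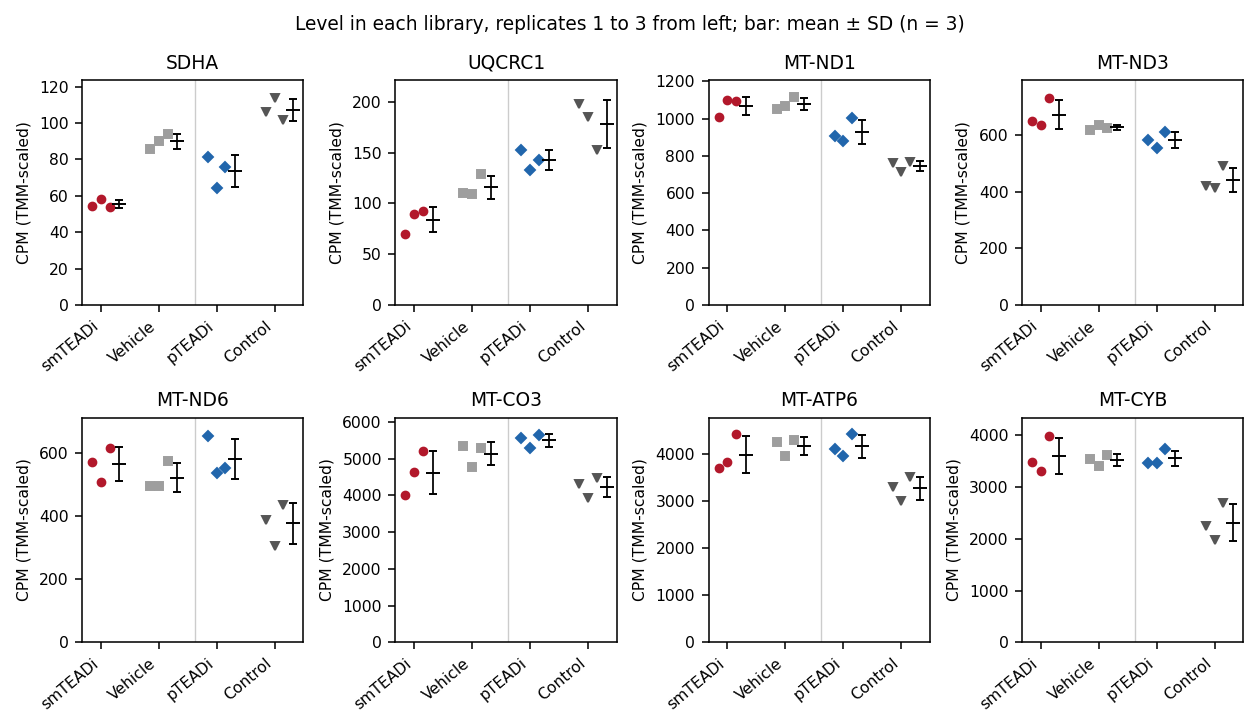
Levels of the respiratory chain genes that passed the test in either comparison, in CPM (TMM scaled, linear axis from 0). Each point is 1 of the 3 libraries of a group and the bar beside them is the mean ± SD (n = 3); the groups stand in the order smTEADi, Vehicle, pTEADi, Control. All 3 pTEADi libraries lie above all 3 Control libraries for the 6 mitochondrial genes shown, whereas SDHA lies lower in both inhibitor groups than in their own controls.

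Some mitochondrially encoded messages rose in pTEADi relative to Control tumours. By edgeR's quasi-likelihood test with Benjamini-Hochberg adjustment over 14705 genes, 6 of the 13 rose and none fell, where 12.7% of all genes tested rose and 13.6% fell, 26.3% in either direction. At an unadjusted p under 0.05 there were 7 of 13, beside 38.2% of all genes tested. The 13 log2 fold changes had a median of 0.26, beside -0.0007 for all genes tested, and 11 of 13 were positive. The 6 genes that rose were MT-CYB, the cytochrome b of complex III, MT-ND6, MT-ND3 and MT-ND1, which are membrane subunits of complex I, MT-CO3 of complex IV, and MT-ATP6, the part of the proton channel of complex V made in the mitochondrion. Groups that did not overlap, with pTEADi higher, were seen for the same 6 genes, against 20.1% of all genes tested.

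The 2 genes with the largest rise are neighbours on the mitochondrial chromosome. MT-CYB (chrM:14747-15887, heavy strand transcript) reached 3471, 3464 and 3729 CPM in pTEADi, against 2249, 1987 and 2695 CPM in Control tumours. The groups did not overlap, Control 2 was lowest, and MT-CYB rose by a log2 fold change of 0.62 ± 0.12 (SE, n = 3 each; edgeR adjusted p = 0.00325). MT-ND6 (chrM:14149-14673), the single protein-coding gene read from the other strand, had 655.3, 536.4 and 553.7 CPM in pTEADi, against 388.0, 306.8 and 436.9 CPM in Control tumours. The groups again did not overlap, and the log2 fold change was 0.63 ± 0.13 (SE, n = 3 each; edgeR adjusted p = 0.00442). Whether the counting used strand is not stated, so reads of MT-ND6 and reads of the heavy strand transcript that runs through it cannot be told apart. How well poly-A selection captured the MT-ND6 message was not tested. MT-CYB and MT-ND6 passed the test in 17 of 17 settings tried.

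The other 2 complex I genes that rose were smaller in effect. MT-ND3 had 582.5, 554.7 and 611.5 CPM in pTEADi, against 422.7, 413.0 and 492.3 CPM in Control tumours (log2 fold change 0.40 ± 0.10, SE, n = 3 each; edgeR adjusted p = 0.0103). MT-ND1 had 904.1, 878.1 and 1003 CPM in pTEADi, against 760.1, 712.9 and 764.6 CPM in Control tumours (0.32 ± 0.09; adjusted p = 0.0260). In both genes every pTEADi library stood above every Control library. In complex IV, MT-CO3, a core subunit of cytochrome c oxidase, had 5560, 5304 and 5651 CPM in pTEADi, against 4299, 3924 and 4464 CPM in Control tumours (0.38 ± 0.10; adjusted p = 0.0193). MT-ATP6 had 4100, 3959 and 4427 CPM in pTEADi, against 3290, 3009 and 3504 CPM in Control tumours (0.35 ± 0.11; adjusted p = 0.0311). MT-CO3 and MT-ATP6, which adjoin on the chromosome, likewise showed no overlap between groups.

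Each of these 4 calls was lost on leaving out at least 1 library. MT-ND3 lost its call without Control 1 (adjusted p = 0.0588), MT-ND1 without pTEADi 1 or 3 or Control 1 or 2 (0.0527 to 0.0954), MT-CO3 without any pTEADi library or Control 1 (0.0517 to 0.0714), and MT-ATP6 without any library but Control 3 (0.0628 to 0.114). The number of mitochondrial genes called was 3 without pTEADi 1, 3 without pTEADi 3 and 2 without Control 1, but 9 without Control 3, when MT-ND4 (0.29, adjusted p = 0.0451), MT-ND5 (0.47, 0.0133) and MT-CO1 (0.36, 0.0203) also rose.

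Of the 7 mitochondrial genes that did not pass, 5 had positive log2 fold changes. MT-CO1, the catalytic subunit of complex IV and the most abundant of the 46 per length over all 12 libraries (MT-CO2 was higher in Control), had 10828, 10813 and 11680 CPM in pTEADi, against 9135, 8165 and 11028 CPM in Control tumours (0.23 ± 0.13; edgeR adjusted p = 0.216). MT-ND4 had 5777, 5223 and 5961 CPM in pTEADi, against 4612, 4606 and 5539 CPM in Control tumours (0.20 ± 0.12; adjusted p = 0.236). For both genes Control 3 was above the lowest pTEADi library and the groups overlapped. MT-ND5 (0.26 ± 0.16), MT-ND2 (0.18 ± 0.10) and MT-CO2 (0.08 ± 0.11) had adjusted p values of 0.275, 0.236 and 0.618. The 2 negative values belonged to the short upstream partners of the bicistronic messages. MT-ND4L had 128.9, 142.1 and 158.2 CPM in pTEADi, against 177.2, 142.2 and 211.4 CPM in Control tumours (-0.31 ± 0.13; adjusted p = 0.111), and MT-ATP8 had 4.20, 6.32 and 4.91 CPM in pTEADi, against 7.55, 3.93 and 8.19 CPM in Control tumours (-0.35 ± 0.27; adjusted p = 0.380). Control 2 was as low as pTEADi for MT-ND4L, which fell without it (-0.44, adjusted p = 0.00614). MT-ND4L was also called lower with all 6 libraries when no low-count filter was applied (-0.31, adjusted p = 0.0165).

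The partners of each bicistronic message overlap in the genome, and reads in the shared bases can be assigned to either gene. The sequences below are read from the hg38 mitochondrial chromosome on the plus strand, with capitals for the bases that both genes hold: 46 for MT-ATP8 and MT-ATP6 (chrM:8527-8572) and 7 for MT-ND4L and MT-ND4 (chrM:10760-10766).
MT-ATP8 and MT-ATP6, chrM:8515-8584: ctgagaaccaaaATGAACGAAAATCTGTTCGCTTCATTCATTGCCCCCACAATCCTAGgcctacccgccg
MT-ND4L and MT-ND4, chrM:10740-10786: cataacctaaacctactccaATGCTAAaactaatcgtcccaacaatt
In both, the capitals open with the ATG start codon of the downstream gene. MT-ATP8 spans 207 bases and MT-ND4L 297, against reads of 150 bases from each end. How fragments that reach into both genes were divided was not tested.

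**Figure D2:**
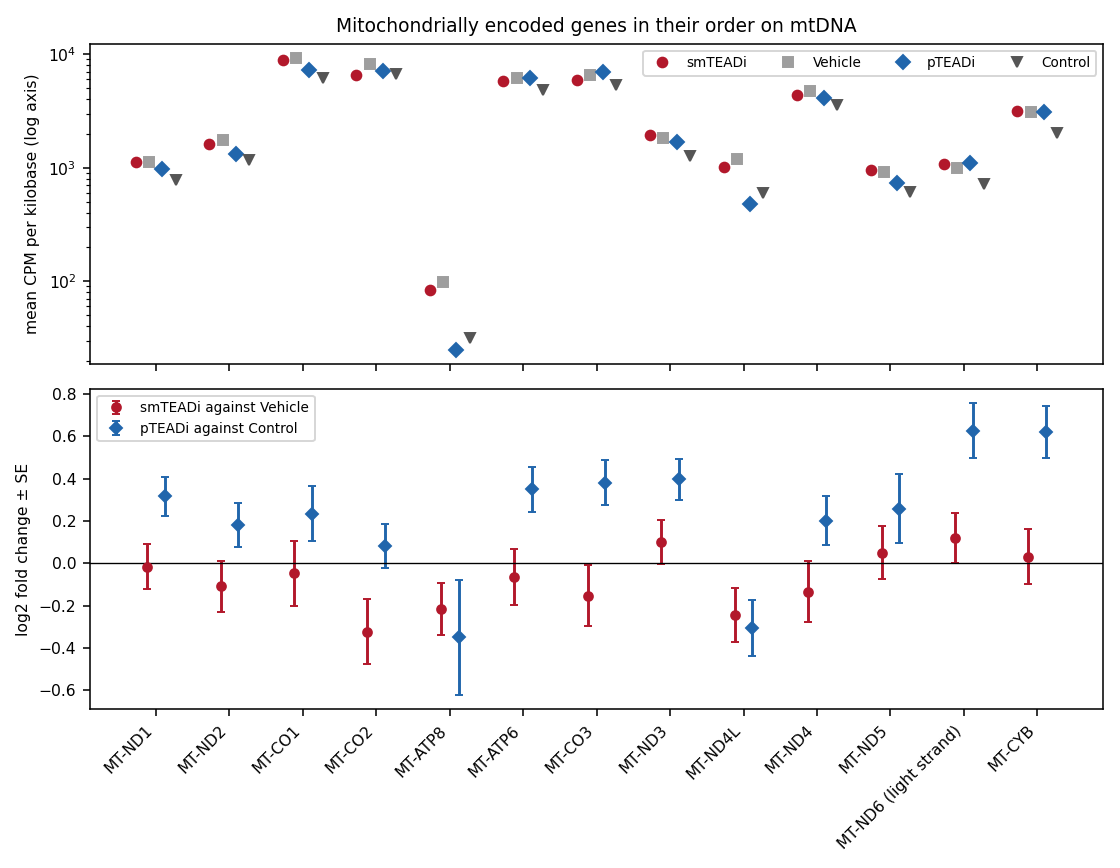
The 13 mitochondrial genes in their order along the mitochondrial chromosome: above, each group's mean level in CPM per kilobase on a log axis; below, edgeR log2 fold changes with standard errors (n = 3 each) for smTEADi against Vehicle and pTEADi against Control. The highest values of pTEADi against Control are the neighbours MT-ND6 (0.63) and MT-CYB (0.62), and its negative values are MT-ATP8 (-0.35) and MT-ND4L (-0.31).

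Summed over the 13 genes, mitochondrial messages came to 39615, 38115 and 41737 CPM in pTEADi, against 32392, 29500 and 36717 CPM in Control tumours. The groups did not overlap, and Control 3 came nearest to pTEADi. The 2 mitochondrial ribosomal RNAs, which are cut from the same heavy strand transcripts, summed to 7369, 7275 and 7714 CPM in pTEADi, against 6495, 6029 and 7417 CPM in Control tumours, with overlap, and neither passed the test (0 at an unadjusted p under 0.05, by DESeq2 or by limma-voom). Nuclear-genome copies of mitochondrial DNA can share reads with these genes: MTATP6P1 on chromosome 1 had 2016 to 3952 counts and MTCO1P12 1118 to 2263 counts a library, and neither passed in pTEADi against Control (0.17 ± 0.10, edgeR adjusted p = 0.234, and 0.24 ± 0.12, 0.177).

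Markers of some other cells moved beside this result. The summed level of 10 skeletal muscle markers was 26.8, 24.6 and 23.4 CPM in pTEADi, against 6.38, 7.64 and 26.2 CPM in Control tumours, so Control 3, the Control library with the highest mitochondrial sum, was also the one at the pTEADi level. Most of that sum was the myosin gene MYH4, with 18.4, 16.6 and 15.9 CPM in pTEADi, against 0, 0 and 17.0 CPM in Control tumours. Of the 10, 5 were too low to test, with CKM and DES at 0 in all 6 libraries. None of the 5 tested was called by edgeR (1 at an unadjusted p under 0.05, 0 by DESeq2), although limma-voom called 3 higher. VWF alone of 4 endothelial markers could be tested, and it rose (1.19 ± 0.19, edgeR adjusted p = 0.000862) while KDR was at 0. The endothelial sum was 30.5, 41.7 and 34.7 CPM in pTEADi, against 12.7, 13.2 and 21.1 CPM in Control tumours. Of 6 leukocyte markers, CD74 and CSF1R fell, and the sum was 31.4 to 38.3 CPM in pTEADi, against 43.2 to 68.7 CPM in Control tumours. The part of these cells in the rise was not tested.

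With SW-682 no mitochondrial gene was called. None of the 13 mitochondrial genes passed in smTEADi against Vehicle over 14829 genes tested (0 at an unadjusted p under 0.05, and 0 by DESeq2 and by limma-voom), where 2.02% of all genes tested rose and 3.48% fell, 5.5% in either direction. The median log2 fold change was -0.06, beside 0.01 for all genes tested, 9 of 13 were negative, and the values ran between -0.32 for MT-CO2 and 0.12 for MT-ND6. MT-CYB had 3496, 3310 and 3996 CPM in smTEADi, against 3549, 3402 and 3626 CPM in Vehicle tumours (0.03 ± 0.13, SE, n = 3 each; edgeR adjusted p = 0.901). The groups overlapped, and the 95% interval of this log2 fold change ran from -0.26 to 0.32.

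The most abundant mitochondrial messages spread widely among the smTEADi libraries. MT-CO1 had 12412, 13223 and 15432 CPM in smTEADi, against 14851, 13315 and 14277 CPM in Vehicle tumours (-0.05 ± 0.15; edgeR adjusted p = 0.868). MT-ND4 had 5713, 5443 and 6782 CPM in smTEADi, against 6592, 6141 and 6967 CPM in Vehicle tumours (-0.14 ± 0.14; adjusted p = 0.573). MT-ATP6 had 3690, 3834 and 4424 CPM in smTEADi, against 4248, 3946 and 4298 CPM in Vehicle tumours (-0.06 ± 0.13; adjusted p = 0.786). In all 3 genes smTEADi 3 was the highest of its group and lay within or above the Vehicle range. Summed over the 13 genes the levels were 39073, 40718 and 47468 CPM in smTEADi, against 46714, 42434 and 46696 CPM in Vehicle tumours, again with overlap. MT-ND3 was the gene whose smTEADi libraries all lay above Vehicle, and MT-ATP8 the one whose smTEADi libraries all lay below, with adjusted p values of 0.562 and 0.276.

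Complex II held the one gene of the 46 that edgeR called with both agents after the low-count filter. UQCRC1 of complex III, called with pTEADi, was just outside the threshold with SW-682 (edgeR adjusted p = 0.0620). It was called there by DESeq2 (adjusted p = 0.0196) and by edgeR with no low-count filter (0.0163). SDHA, the flavoprotein that oxidises succinate and belongs to the citric acid cycle as well, fell in both comparisons. It had 54.5, 58.0 and 54.0 CPM in smTEADi, against 86.0, 89.9 and 93.9 CPM in Vehicle tumours (log2 fold change -0.70 ± 0.09, SE, n = 3 each, a ratio of 0.617; edgeR adjusted p = 0.0365). It had 81.3, 64.1 and 75.6 CPM in pTEADi, against 105.8, 113.5 and 101.9 CPM in Control tumours (-0.54 ± 0.10, a ratio of 0.688; adjusted p = 0.00221). In neither experiment did the groups overlap. The difference of the 2 effects on SDHA was 0.16, with a 95% interval from -0.13 to 0.44. SDHA was the only one of the 46 genes that edgeR called with SW-682, with the table fitted alone after the low-count filter. That was 1 of 33 nuclear genes, where 3.48% of all genes tested fell. With SW-682 the SDHA call held in 12 of 17 settings. It was lost without smTEADi 3 (edgeR adjusted p = 0.0518), Vehicle 1 (0.134) or Vehicle 3 (0.184). It was also lost with replicate numbers in the fit (0.0828) and at an adjusted p of 0.01. With pTEADi the SDHA call held in 17 of 17 settings.

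SDHA has close pseudogene copies that could take some of its reads. SDHAP1 had 278.6 to 489.1 counts a library and SDHAP4 184.2 to 324.6, against 734.6 to 1588 for SDHA itself. Neither passed: SDHAP1 had a log2 fold change of 0.25 ± 0.17 (edgeR adjusted p = 0.378) with SW-682 and -0.16 ± 0.13 (0.408) with pTEADi, and SDHAP4 had 0.19 ± 0.15 (0.443) and 0.22 ± 0.13 (0.225). The other complex II genes were SDHB, the iron-sulfur subunit, and SDHC and SDHD, which anchor the complex in the membrane. With SW-682 their log2 fold changes lay between -0.14 and -0.12 and none passed. SDHC had 63.8, 76.9 and 76.1 CPM in smTEADi, against 75.9, 81.2 and 78.4 CPM in Vehicle tumours (-0.12 ± 0.10; adjusted p = 0.483), and 73.4, 72.9 and 82.9 CPM in pTEADi, against 73.7, 61.9 and 80.2 CPM in Control tumours (0.09 ± 0.11; adjusted p = 0.591). SDHB had 41.1, 40.5 and 42.2 CPM in pTEADi, against 51.2, 50.6 and 42.9 CPM in Control tumours (-0.22 ± 0.10; adjusted p = 0.109). Its groups did not overlap, although Control 3 stood close to pTEADi, and without Control 3 it fell (-0.30).

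**Figure D3:**
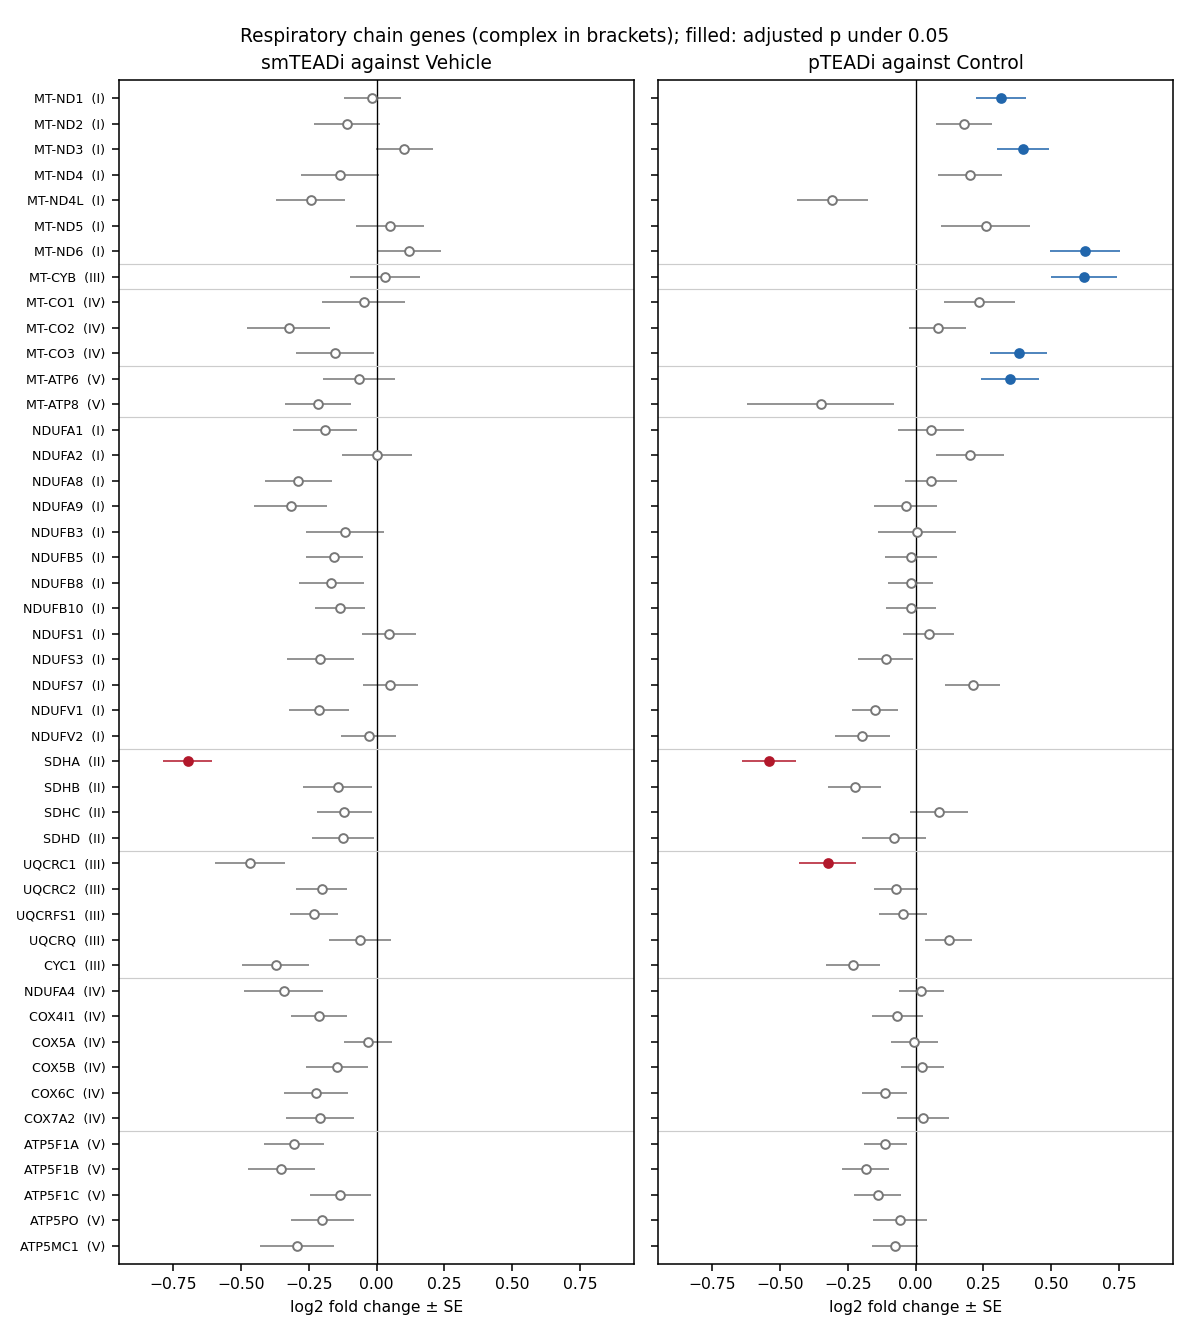
Log2 fold changes of all 46 genes by complex and genome, for smTEADi against Vehicle on the left and pTEADi against Control on the right. Points are edgeR estimates with standard errors from 3 libraries a group, and filled points passed at an adjusted p under 0.05, blue where higher and red where lower. Nuclear genes lie mostly left of 0 with SW-682 (31 of 33), where SDHA alone is filled, and 6 mitochondrial genes are filled right of 0 with pTEADi.

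Nuclear respiratory factor 1 (NRF1) and GA-binding protein (GABP) are textbook activators of nuclear respiratory chain genes, so the promoters of the 2 nuclear genes that fell are shown. Of the 33 nuclear genes, 27 were matched by symbol to RefSeq promoters of GRCh38.p14, and the 250 bases before each start were searched on both strands for GCGCA, any base and GCGC (NRF1), for CCGGAAG (GABP), GGAATG (TEAD) and CACGTG (the E-box of MYC). None of these motifs contains another. The sequences below run 5′ to 3′ on the gene's own strand, and capitals mark NRF1 matches. SDHA is on the plus strand and UQCRC1 on the minus strand.
SDHA, chr5:218070-218319: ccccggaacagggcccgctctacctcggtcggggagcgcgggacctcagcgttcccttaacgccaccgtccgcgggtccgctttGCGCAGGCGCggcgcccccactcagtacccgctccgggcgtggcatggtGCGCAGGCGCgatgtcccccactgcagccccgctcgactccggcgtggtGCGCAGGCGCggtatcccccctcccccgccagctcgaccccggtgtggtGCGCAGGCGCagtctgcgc
UQCRC1, chr3:48609647-48609896: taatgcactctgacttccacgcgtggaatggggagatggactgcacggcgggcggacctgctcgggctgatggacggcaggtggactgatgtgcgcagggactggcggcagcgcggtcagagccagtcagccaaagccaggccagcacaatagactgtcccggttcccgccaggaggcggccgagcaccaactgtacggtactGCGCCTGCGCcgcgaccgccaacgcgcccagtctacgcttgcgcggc
The SDHA window held 4 NRF1 matches, which begin 166, 117, 68 and 19 bases before the start, and UQCRC1 held 1, which begins 47 bases before it. NRF1 matches were present in 7 of the 27 windows (25.9%), against 5.07% of 35116 promoters of the same length, and GABP matches also in 7 of 27 (25.9%), against 8.52%. The TEAD letters were in 3 of 27 windows (11.1%), UQCRC1 among them, against 11.9% of all promoters, and the E-box in 1 of 27 (3.70%), against 6.34%. NRF1 matches were also in ATP5F1C, ATP5PO, NDUFA9, SDHD and UQCRFS1, and edgeR called none of these genes in either comparison. A match is a run of letters and not a measured binding site, and its part in the falls was not tested.

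Complex III gave the second nuclear call with pTEADi. UQCRC1, a core protein of the matrix side of complex III, had 152.6, 132.9 and 142.6 CPM in pTEADi, against 198.1, 185.5 and 152.4 CPM in Control tumours (-0.32 ± 0.11, SE, n = 3 each; edgeR adjusted p = 0.0410). Control 3 lay inside the pTEADi range, so the groups overlapped, and the call was lost without any pTEADi library or Control 1 or 2 (adjusted p 0.0635 to 0.186). In smTEADi it had 69.6, 89.7 and 92.8 CPM, against 110.1, 109.2 and 129.2 CPM in Vehicle tumours (-0.47 ± 0.13; adjusted p = 0.0620). There the groups did not overlap, although the value was just outside the threshold.

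CYC1, the cytochrome c1 that hands electrons to cytochrome c, ran close to UQCRC1. It had 129.1, 155.3 and 171.5 CPM in smTEADi, against 183.2, 193.3 and 213.6 CPM in Vehicle tumours (-0.37 ± 0.12; edgeR adjusted p = 0.0942), and 281.0, 258.3 and 256.6 CPM in pTEADi, against 324.1, 338.9 and 270.7 CPM in Control tumours (-0.23 ± 0.10; adjusted p = 0.111). Groups stayed apart with SW-682 but not with pTEADi, where Control 3 was low and the gene fell without it (-0.32). UQCRFS1, the Rieske iron-sulfur protein, and UQCRC2, the other core protein, were lower in every smTEADi than in every Vehicle library but did not pass (-0.23 ± 0.09, adjusted p = 0.128, and -0.20 ± 0.09, 0.197). With pTEADi their values were -0.05 ± 0.09 and -0.07 ± 0.08. UQCRQ, a small subunit, had -0.06 with SW-682 and 0.12 with pTEADi.

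In complex V none of the 5 nuclear genes passed in either comparison by edgeR with each table fitted alone. At an unadjusted p under 0.05 there were 2 with SW-682, beside 27.8% of all genes tested, and 0 with pTEADi, beside 38.2%. ATP5F1B, the catalytic beta subunit and the highest of the nuclear genes, had 443.2, 518.9 and 555.5 CPM in smTEADi, against 646.7, 592.6 and 696.3 CPM in Vehicle tumours (-0.35 ± 0.12, SE, n = 3 each; edgeR adjusted p = 0.106). In pTEADi it had 652.1, 617.0 and 659.2 CPM, against 737.9, 746.2 and 706.2 CPM in Control tumours (-0.18 ± 0.09; adjusted p = 0.139). The groups did not overlap in either experiment, yet neither difference passed in these fits. With SW-682, ATP5F1B was called lower by DESeq2 (adjusted p = 0.0473) and by 1 edgeR fit of all 12 libraries (adjusted p = 0.0312). The groups of ATP5F1A, the alpha subunit, did not overlap in either experiment, with -0.31 ± 0.11 (edgeR adjusted p = 0.115) and -0.11 ± 0.08 (0.334). The edgeR fit of all 12 libraries called ATP5F1A lower with SW-682 (adjusted p = 0.0382). ATP5MC1 of the membrane c-ring, ATP5PO of the stalk and ATP5F1C, the gamma subunit, had -0.29, -0.20 and -0.13 with SW-682, and between -0.14 and -0.06 with pTEADi.

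The 13 nuclear genes of complex I and the 6 of complex IV gave no call in either comparison by edgeR, DESeq2 or limma-voom. At an unadjusted p under 0.05 there were 2 of 13 and 1 of 6 with SW-682, beside 27.8% of all genes tested, and 0 with pTEADi, beside 38.2%. In complex I the median log2 fold change was -0.16 with SW-682 and -0.02 with pTEADi. NDUFB10 had 57.6, 64.1 and 62.9 CPM in smTEADi, against 66.6, 66.9 and 69.3 CPM in Vehicle tumours (-0.13 ± 0.09; edgeR adjusted p = 0.362), and 88.4, 84.1 and 82.7 CPM in pTEADi, against 83.6, 96.1 and 78.6 CPM in Control tumours (-0.02 ± 0.09; adjusted p = 0.914). It was apart with SW-682, as were NDUFA1, NDUFA8 and NDUFA9, which like it are accessory subunits, with values between -0.32 and -0.13. Of the core subunits that carry flavin or iron-sulfur centres, NDUFV1 had -0.21, NDUFV2 -0.03, NDUFS1 0.04 and NDUFS7 0.05 with SW-682. NDUFS3, a core subunit without such a centre, had -0.21, and the accessory subunits NDUFA2, NDUFB3, NDUFB5 and NDUFB8 had values between -0.17 and -0.0001. With pTEADi the 13 ran between -0.20 for NDUFV2 and 0.21 for NDUFS7. NDUFS7 was the single nuclear gene whose pTEADi libraries all lay above Control (0.21 ± 0.10; adjusted p = 0.149). In complex IV the median was -0.21 with SW-682 and 0.01 with pTEADi. COX5B had 53.2, 60.1 and 69.5 CPM in smTEADi, against 64.9, 67.6 and 69.8 CPM in Vehicle tumours (-0.15 ± 0.11; adjusted p = 0.429), and 94.97, 95.21 and 91.90 CPM in pTEADi, against 96.2, 91.9 and 89.0 CPM in Control tumours (0.03 ± 0.08; adjusted p = 0.845). Both pairs of groups overlapped. NDUFA4 had the lowest value of complex IV with SW-682 (-0.34 ± 0.15; adjusted p = 0.161) and 0.02 ± 0.08 with pTEADi. The other nuclear complex IV genes, COX4I1, COX5A, COX6C and COX7A2, had values between -0.22 and -0.03 with SW-682 and between -0.11 and 0.03 with pTEADi.

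Taken over all 33 nuclear genes, values with SW-682 were mostly negative and mostly short of the threshold. Their median log2 fold change was -0.20, beside 0.01 for all genes tested, and 31 of 33 were negative, beside 48.9% of all genes tested. At an unadjusted p under 0.05 there were 9 of 33, beside 27.8% of all genes tested, and in 15 of 33 every smTEADi library lay below every Vehicle library, beside 17.3%. The library smTEADi 1 lay furthest from Vehicle: its nuclear genes had a median log2 distance of -0.34 from the Vehicle mean, against -0.08 in smTEADi 2 and -0.14 in smTEADi 3. Without smTEADi 1 the median of the 33 was -0.093. DESeq2 called 3 of the 33 lower with SW-682, SDHA, UQCRC1 and ATP5F1B, and 1 edgeR fit of all 12 libraries called 5, with CYC1 and ATP5F1A added. Markers of some other cells also differed in that experiment, although only 1 adipocyte and 1 endothelial marker could be tested. Neither was called by edgeR, both were called higher by DESeq2, and limma-voom called the endothelial one. The adipocyte sum was 34.0, 64.3 and 37.8 CPM in smTEADi, against 28.0, 22.9 and 21.7 CPM in Vehicle tumours, with 4 of the 7 markers at 0, ADIPOQ and LEP among them. The endothelial sum was 64.6, 35.9 and 43.1 CPM in smTEADi, against 15.8, 33.1 and 16.3 CPM in Vehicle tumours, with CDH5 and KDR at 0. The sums of leukocyte (34.0 to 55.1 CPM in smTEADi, against 33.3 to 42.7 CPM in Vehicle) and fibroblast markers (83.9 to 91.3, against 73.5 to 93.2 CPM) overlapped. Skeletal muscle markers also overlapped (9.32 to 20.6, against 6.44 to 20.4 CPM). The part of these cells in the nuclear values was not tested.

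With pTEADi the median was -0.05, beside -0.0007 for all genes tested, 22 of 33 were negative, beside 50.1%, and 2 fell, SDHA and UQCRC1, beside 13.6% of all genes tested. In 4 of 33, SDHA, SDHB, ATP5F1A and ATP5F1B, every pTEADi library lay below every Control library, beside 21.9%.

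**Figure D4:**
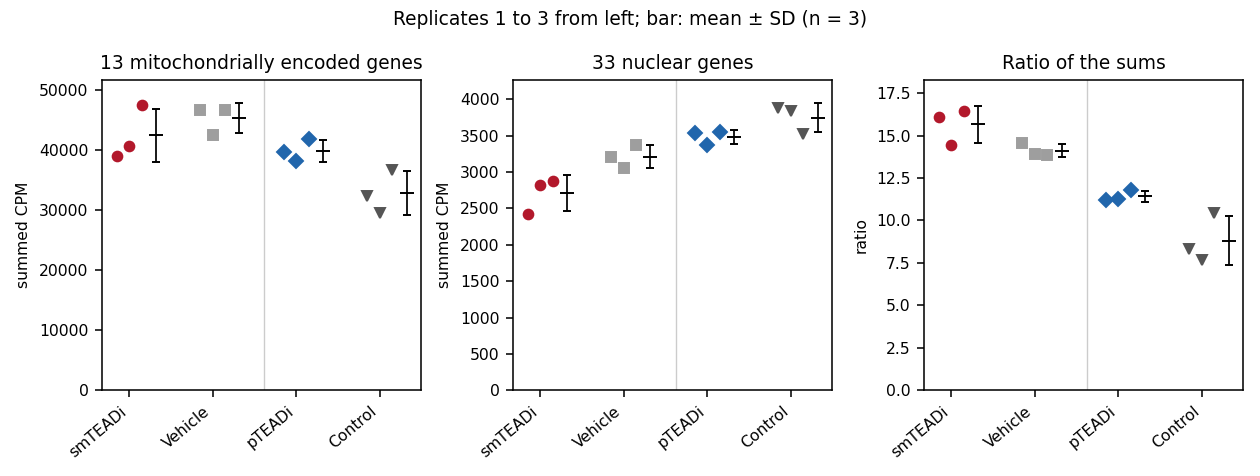
Summed CPM of the 13 mitochondrial genes and of the 33 nuclear genes in each library, and the ratio of the 2 sums, on linear axes from 0. Points are single libraries in the order smTEADi, Vehicle, pTEADi, Control, and bars are the mean ± SD (n = 3). The ratio lies between 11.2 and 11.8 in pTEADi and between 7.69 and 10.4 in Control, and between 14.4 and 16.5 in smTEADi and 13.9 and 14.6 in Vehicle.

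The summed nuclear level was 2428, 2823 and 2881 CPM in smTEADi, against 3211, 3052 and 3367 CPM in Vehicle tumours, and 3536, 3375 and 3545 CPM in pTEADi, against 3886, 3836 and 3526 CPM in Control tumours. The first pair of groups did not overlap and the second did, with Control 3 the lowest Control library. The ratio of the mitochondrial to the nuclear sum was 16.1, 14.4 and 16.5 in smTEADi, against 14.6, 13.9 and 13.9 in Vehicle tumours. It was 11.2, 11.3 and 11.8 in pTEADi, against 8.34, 7.69 and 10.4 in Control tumours. The ratio was higher in every pTEADi than in every Control library, whereas smTEADi 2 fell within the Vehicle range.

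The test of the difference between the agents, pTEADi against Control minus smTEADi against Vehicle, called none of the 46 genes by edgeR (8 at an unadjusted p under 0.05, 0 by limma-voom, and 1 by DESeq2). It called 0.0129% of the 15460 genes tested, and 7.13% had an unadjusted p under 0.05. The gene that DESeq2 called was MT-CYB (0.59, adjusted p = 0.0496), which also had the smallest edgeR adjusted p of the 46 (0.59, 95% interval 0.23 to 0.95, adjusted p = 0.491). MT-CO3 (0.54, 0.19 to 0.88), MT-ND6 (0.51, 0.11 to 0.90) and MT-ATP6 (0.42, 0.09 to 0.74) came next in size among the genes that rose with pTEADi, with edgeR adjusted p values of 0.503 to 0.614. The difference was positive in 41 of 46 genes, beside 7992 of 15460. A rise of mitochondrial messages with pTEADi and none with SW-682 is therefore not shown to be a difference between the agents by edgeR.

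Genes that build, feed or express the chain gave further context. The further structural subunits numbered 45: 24 of complex I, 4 of complex III, 5 of complex IV and 12 of complex V. None passed with SW-682 by edgeR. At an unadjusted p under 0.05 there were 5 of 45, beside 27.8% of all genes tested. DESeq2 called 1 lower and limma-voom 0. With pTEADi 1 of 45 fell, beside 13.6% of all genes tested. It was ATP5MC3 of the c-ring (-0.25 ± 0.08; edgeR adjusted p = 0.0445). Among 7 isoforms tied to tissue or to low oxygen 5 were too low to test, and the testis isoform COX6B2 fell with pTEADi (-0.80 ± 0.19; adjusted p = 0.00848). Its levels were 7.28, 5.15 and 5.11 CPM in pTEADi, against 9.57, 11.6 and 9.43 CPM in Control tumours. NDUFA4L2, which can take the place of NDUFA4 in low oxygen, had -0.35 with pTEADi, did not pass by edgeR and was called lower by DESeq2. Of 48 assembly factors 3 fell with pTEADi by edgeR and 1 by DESeq2, beside 13.6% of all genes tested by edgeR: NDUFAF2 (-0.56) and ECSIT (-0.39) for complex I and COX10 (-0.37) for the haem of complex IV. None rose.

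Some genes that act on mitochondrial DNA or that make, process or read mitochondrial RNA fell with pTEADi. Their shares are to be read beside the 13.6% of all genes tested that fell. Of 12 genes of mitochondrial DNA transcription and replication, 2 fell by edgeR, a share near that of all genes. They were TWNK, the replicative helicase (-0.48 ± 0.14; edgeR adjusted p = 0.0231), and TOP1MT, a topoisomerase (-0.31 ± 0.10; adjusted p = 0.0335). DESeq2 called 1 of the 12 lower and limma-voom 2. Of 16 genes of RNA processing and stability 4 fell and none rose by edgeR, whereas DESeq2 called 4 lower and 1 higher. LRPPRC, which with SLIRP protects mitochondrial messages, had 85.7, 87.6 and 98.3 CPM in pTEADi, against 125.3, 116.1 and 114.7 CPM in Control tumours (-0.39 ± 0.09; adjusted p = 0.00649). SLIRP (-0.46), the exoribonuclease PNPT1 (-0.41) and TBRG4 (-0.32) were the others. Of 78 genes of the mitochondrial ribosome 11 fell by edgeR, a share near that of all genes, and none rose. The median was -0.15 and 65 of 78 were negative. DESeq2 called 8 of the 78 lower and limma-voom 11. MRPL3 had 56.3, 50.7 and 55.7 CPM in pTEADi, against 72.4, 82.0 and 75.6 CPM in Control tumours (-0.50 ± 0.09; adjusted p = 0.00179), and MRPL11 (-0.52), MRPL44 (-0.50) and MRPL9 (-0.42) also fell. PPRC1, a coactivator related to PGC-1, was the one of 8 biogenesis regulators tested that fell (-0.35 ± 0.08; adjusted p = 0.00872), also a share near that of all genes. These genes fell in the same tumours in which 6 mitochondrial messages rose, and whether the one bears on the other was not tested.

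**Figure D5:**
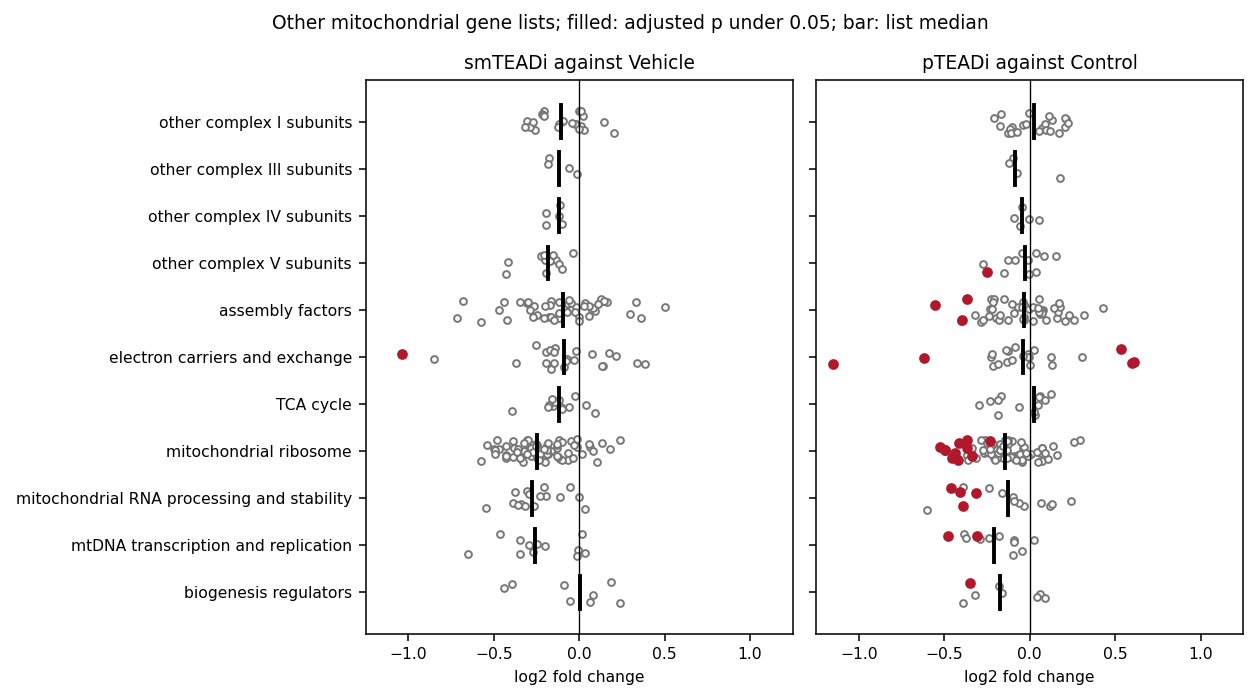
Log2 fold changes of single genes in lists around the respiratory chain, for smTEADi against Vehicle and pTEADi against Control. Each point is 1 gene, filled where edgeR's adjusted p was under 0.05, and the short line is the list's median. Mitochondrial ribosome genes have medians of -0.25 with SW-682 and -0.15 with pTEADi. In pTEADi tumours 11 of 78 fell, beside 13.6% of all genes tested.

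With SW-682, no gene of these machinery lists passed by edgeR. The medians were -0.25 for the mitochondrial ribosome, where 70 of 78 were negative, -0.28 for RNA processing and stability and -0.26 for transcription and replication. At an unadjusted p under 0.05 there were 27 of 78, 6 of 16 and 2 of 12 in these lists, beside 27.8% of all genes tested. DESeq2 called 6, 1 and 1 of them lower, and limma-voom none. LRPPRC had 93.1, 117.1 and 116.9 CPM in smTEADi, against 144.8, 117.7 and 165.6 CPM in Vehicle tumours (-0.39 ± 0.14; edgeR adjusted p = 0.123), with groups narrowly apart. The library smTEADi 1 was the lowest in the summed lists, with 2045 CPM for the mitochondrial ribosome, against 2323 and 2365 CPM in smTEADi 2 and 3 and 2514 to 2802 CPM in Vehicle tumours.

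A list of electron carriers, the enzymes that make or load them, genes of exchange across the mitochondrial membranes and ATP5IF1 had calls in both directions. Of 23 genes, 3 rose and 2 fell with pTEADi, beside 12.7% and 13.6% of all genes tested. ETFDH, which feeds electrons of fatty acid and amino acid oxidation into ubiquinone, had 27.3, 29.7 and 28.9 CPM in pTEADi, against 17.3, 16.8 and 22.2 CPM in Control tumours (0.61 ± 0.13; edgeR adjusted p = 0.00424). COQ4 (0.53 ± 0.09; adjusted p = 0.00171) and COQ8A (0.60 ± 0.17; adjusted p = 0.0241), both needed to make ubiquinone, also rose. COQ10A, a ubiquinone-binding protein, fell (-1.15 ± 0.29; adjusted p = 0.0124). PDSS1, a subunit of the enzyme that makes the isoprenoid tail of ubiquinone, fell with both agents. It had 2.446, 3.573 and 4.498 CPM in smTEADi, against 7.33, 6.51 and 7.80 CPM in Vehicle tumours (-1.04 ± 0.24; adjusted p = 0.0446), and 3.90, 4.38 and 5.32 CPM in pTEADi, against 6.38, 7.71 and 6.86 CPM in Control tumours (-0.62 ± 0.19; adjusted p = 0.0345). The groups did not overlap in either experiment. It was the one gene of these surrounding mitochondrial lists that edgeR called with SW-682. Of 13 citric acid cycle genes tested none passed in either comparison by edgeR, DESeq2 or limma-voom. At an unadjusted p under 0.05 there was 1 of 13 for SW-682, beside 27.8% of all genes tested, and 3 of 13 for pTEADi, beside 38.2%.

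Of 6 genes that low oxygen raises and that act on mitochondria, 2 fell with pTEADi and none rose, beside 13.6% and 12.7% of all genes tested, and the median was -0.06. BNIP3, a receptor for the removal of mitochondria, fell (-0.95 ± 0.13; edgeR adjusted p = 0.000312), and PDK1, which holds pyruvate dehydrogenase inactive, fell (-0.49 ± 0.14; adjusted p = 0.0214). BNIP3 had 34.0, 44.8 and 38.9 CPM in pTEADi, against 76.7, 86.5 and 65.0 CPM in Control tumours, with no overlap. The list summed to 315.9, 333.6 and 329.8 CPM in pTEADi, against 380.1, 413.8 and 338.3 CPM in Control tumours, and Control 2 had both the highest of these sums and the lowest mitochondrial sum. With SW-682 no gene of the list passed by edgeR, and 3 of 6 had an unadjusted p under 0.05, beside 27.8% of all genes tested. DESeq2 called 1 higher and limma-voom 0. The sum was 521.6, 473.6 and 333.1 CPM in smTEADi, against 349.6, 454.2 and 344.5 CPM in Vehicle tumours. The library smTEADi 1 had the highest of these sums and also the lowest nuclear sum. The part of oxygen supply in the levels of the respiratory chain genes was not tested.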

How the data were processed

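Poly-A selected RNA of 12 Cal33 xenograft tumour samples was sequenced in paired reads of 150 bases. Per the labels, the authors aligned reads to GRCh38 with STAR 2.7.9a and Gencode 38 and deposited RSEM 1.3.1 expected counts per gene, one table for each experiment. Strand setting, aligner options and removal of mouse reads are not given in the sources used here. Expected counts were rounded, and each table was fitted alone with edgeR 4.0.16 (R 4.3.3): filterByExpr with a minimum count of 10, TMM scaling, quasi-likelihood F tests, two-sided, Benjamini-Hochberg adjustment over all genes tested, threshold 0.05. The difference of the 2 effects came from 1 fit of all 12 libraries. DESeq2 1.42.0 and limma 3.58.1 (voom) were alternatives. Levels are TMM-scaled CPM; fold changes are log2 with standard errors. Names, positions and merged exon lengths come from Gencode 44. The method was tested on simulated data.

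The genes and lists were chosen with earlier results of these data known. Full values are given for genes past the threshold, those just outside it, and the highest per length in each complex and genome; of other lists, at most 4 genes with the smallest p. No 2 libraries of a group agreed within sampling noise (chi-square per gene 7.42 to 34.0). Replicate numbers did not pair libraries.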

Additional observations from a re-analysis of the deposited data

How the results depend on the processing

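No called result changed sign under the settings tried. With SW-682, 816 genes were called, against 2101 with no low-count filter, 1893 by DESeq2, 2303 with all 12 libraries in 1 fit, 0 at an adjusted p of 0.01, and 0 to 1622 when 1 library was left out (0 on leaving out smTEADi 3 and likewise Vehicle 1 or 3, 335 for smTEADi 1, 402 for smTEADi 2, 1622 for Vehicle 2). Nuclear respiratory chain genes called there went to 2, 3, 5 and 0 under the same 4 settings, and to 0 to 1 with 1 library left out; their median of -0.20 ran from -0.22 to -0.093. With pTEADi, 3864 genes became 2138 at an adjusted p of 0.01 and 2325 (without pTEADi 2) to 4379 with 1 library left out. Nuclear genes called went to 1 at 0.01 and with all 12 libraries, and to 1 to 4 with 1 library left out (4 without Control 3). Mitochondrial genes called went to 2 at 0.01 and to 2 (without Control 1) to 9 (without Control 3). For the difference, 2 genes called became 377 with no filter, 43 by DESeq2, 0 at 0.01 and 0 to 20 (without smTEADi 3) with 1 library left out; respiratory chain genes called became 1 by DESeq2. The cause of these shifts was not tested. Over other settings, 499 of 506 single-gene results with pTEADi and 497 of 506 with SW-682 kept their side of the threshold, and 251 and 273 of 276 did so with 1 library left out. These counts hold all 46 genes, most of them never called. With 1 library left out, 19 results with pTEADi were lost calls, all from UQCRC1, MT-ND1, MT-ND3, MT-CO3 and MT-ATP6. MT-CYB, MT-ND6 and SDHA kept their calls with pTEADi. With SW-682, 3 were lost calls of the 1 gene that fell. Counts of 55 to 320 limit MT-ATP8.

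Replicate numbers are shared between groups but deviations of same-numbered libraries correlated between -0.17 and 0.16 (SW-682) and between -0.06 and -0.0018 (pTEADi), and 1 and 0 of 6 libraries correlated best with their own number. With the replicate block, 0 genes were called with SW-682, 0 nuclear respiratory chain genes (SDHA adjusted p = 0.0828) and 0 genes in the difference; with pTEADi 3707 genes passed, and the 2 nuclear and 6 mitochondrial genes stayed at those counts.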
